A study of Rattus norvegicus with 6 samples.

Results

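The 10 genes of bone morphogenetic protein (BMP) signalling described here were measured in rat H9C2 cells in which PUM2 had been knocked down. They were taken from the deposited count table by symbol: the ligand Bmp4, the antagonist Grem1, the receptors Bmpr1a and Bmpr2, the signalling protein gene Smad9, the inhibitory genes Smad6 and Smad7, and the targets Id1, Id2 and Id3. All 10 had a row among the 19825 genes of the table, and 9 of them were among the 12985 genes with enough counts to test; Grem1 was not. The table gives all 10 as protein-coding and places them on chromosomes 15 (Bmp4), 3 (Grem1 and Id1), 16 (Bmpr1a), 9 (Bmpr2), 2 (Smad9), 8 (Smad6), 18 (Smad7), 6 (Id2) and 5 (Id3). H9C2 is a single established line of myoblasts from embryonic rat heart, which the labels call cardiomyocytes. The 3 siPUM2 libraries came from H9C2 cells given small interfering RNA against PUM2, a Pumilio protein that binds messenger RNA. The 3 control libraries (NC) came from H9C2 cells labelled as an inhibition control with an empty vector, so that by the labels the groups differed also in the kind of nucleic acid given. No non-targeting small interfering RNA is named in the labels, and they give neither the time after transfection nor whether replicates were grown as separate cultures. The p-values therefore measure only the spread between these libraries, which may be technical.

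BMP ligands are secreted proteins that bring together type 1 and type 2 receptor kinases at the cell surface. The type 1 receptor then phosphorylates SMAD1, SMAD5 or SMAD9, which enter the nucleus with SMAD4 and switch on target genes. Among the best known targets are the ID genes, whose proteins bind E proteins and keep them and the myogenic factors off DNA, and the inhibitory SMADs, which feed back on the receptors. In the heart this pathway acts in early specification and valve formation, and in cultured myoblasts BMP and ID proteins are known to hold back muscle differentiation.

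Depth was 27704702 to 30579237 counts per library. Levels are given in CPM, where 1 count equals 0.0326 to 0.0360 CPM after libraries are brought to one size with edgeR's TMM factors. Replicates 1, 2 and 3 had 223, 228 and 225 CPM of Pum2 in NC, against 127, 126 and 120 CPM in siPUM2, which left 55.1% of the control level. The library siPUM2 3 held the largest share of nuclear ribosomal RNA, 0.102% of its counts against 0.0275% to 0.0510% in the other 5 libraries. Of 12 listed cardiomyocyte markers 11 had a row, and 7 of these, among them Myh6, Myh7, Tnni3 and Ryr2, had a mean under 1 CPM. Of the 5 tested, Tnnt2 (298 ± 28.8 CPM in NC, 474 ± 32.4 CPM in siPUM2, 1.59-fold; edgeR's adjusted p = 2.86e-12) and Pln (2.76 ± 0.394 and 4.93 ± 0.580 CPM, 1.78-fold; edgeR's adjusted p = 8.03e-05) were called higher and none was called lower. Nkx2-5 (19.7 CPM in NC, 17.9 CPM in siPUM2), Gata4 (10.4 and 9.52 CPM) and Myh6 (0.600 and 0.396 CPM) had lower means in siPUM2 but were not called. The cardiomyocyte sum went from 306 to 365 CPM in NC to 471 to 525 CPM in siPUM2. Most of this sum was Tnnt2 alone, with 274 to 330 CPM in NC and 436 to 494 CPM in siPUM2. Of 4 tested myoblast markers Myog, the gene of the differentiation factor myogenin, was at 20.1 ± 4.23 CPM in NC and 9.23 ± 0.445 CPM in siPUM2, a 2.18-fold fall (edgeR's adjusted p = 1.86e-09). Cdh15 rose from 215 to 247 CPM and Des from 27.9 to 31.3 CPM (adjusted p = 1.73e-06 and 0.0367, edgeR), and Myod1, at 81.3 CPM in NC and 84.2 CPM in siPUM2, was not called; the myoblast sum was 342 to 347 CPM in NC and 358 to 383 CPM in siPUM2. Of 4 tested fibroblast markers 2 rose and 1 fell, and 5 of 6 endothelial markers were under 1 CPM. The summed level of 6 smooth muscle markers, all of which rose, went from 10684 to 10904 CPM in NC to 12136 to 12730 CPM in siPUM2. Most of it was Acta2, with 8387 to 8675 CPM in NC and 9444 to 9937 CPM in siPUM2. The part of these marker shifts in the results below was not tested.

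Most of the tested members were lower after PUM2 knockdown, but the members were chosen with earlier results of these data known. At an adjusted p under 0.05 (edgeR's quasi-likelihood test, Benjamini-Hochberg over all genes tested), 6 of the 9 tested members fell, 1 rose and 2 were not called, where 28.4% of all genes tested were called, 13.3% lower and 15.1% higher. The genes that fell were Bmp4, Smad6, Smad7, Id1, Id2 and Id3, and the gene that rose was Bmpr2. Values in the groups did not overlap for these 7, as for 39.9% of all genes tested (19.2% lower and 20.7% higher in siPUM2). The median log2 fold change (siPUM2 minus NC) of the 9 was -0.23, beside 0.0011 over all genes tested, and single values ran from -0.58 for Smad6 to 0.22 for Bmpr2. Of 39 further pathway genes tested, given below, 9 rose and 6 fell, with a median of 0.01. In bulk RNA, fewer cells that express a gene and less of its RNA per cell cannot be told apart.

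**Figure D1:**
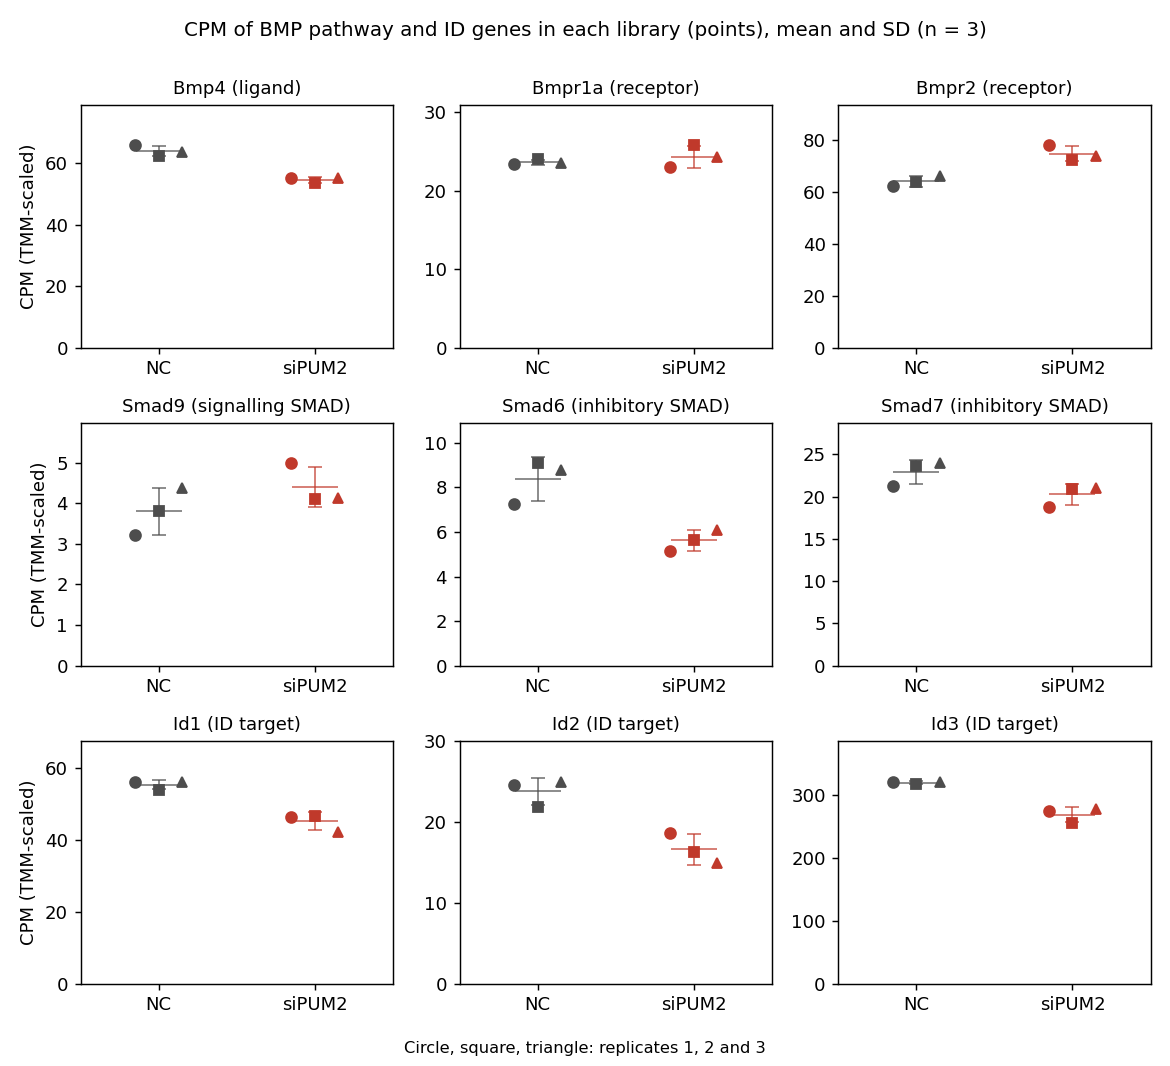
CPM (vertical axis, from 0) of the 9 tested members in each library of NC (grey) and siPUM2 (red), with the group mean and SD as bars (n = 3). In 7 panels the red points lie wholly below or above the grey ones; those of Bmpr1a and Smad9 overlap.

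Read per length, the ID genes led the set. On the scale of FPKM, in which fragments are divided by the length of the gene and the size of the library, the order in NC was Id3 at 301 ± 2.51, Id1 at 31.8 ± 0.793, Id2 at 28.8 ± 2.08, Bmp4 at 20.2 ± 0.546, Bmpr1a at 5.89 ± 0.0777, Bmpr2 at 4.99 ± 0.166, Smad7 at 2.92 ± 0.189, Smad6 at 2.47 ± 0.288 and Smad9 at 0.590 ± 0.0900 (SD, n = 3). The order of the means in siPUM2 was the same. Id1 and Id2 stood close in NC, where their FPKM values ran from 30.9 to 32.4 and from 26.4 to 30.3, and Smad7 (2.70 to 3.05) was next to Smad6 (2.14 to 2.67). The receptors, apart in NC, overlapped in siPUM2, with 5.73 to 6.42 FPKM for Bmpr1a and 5.64 to 6.07 FPKM for Bmpr2.

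**Figure D2:**
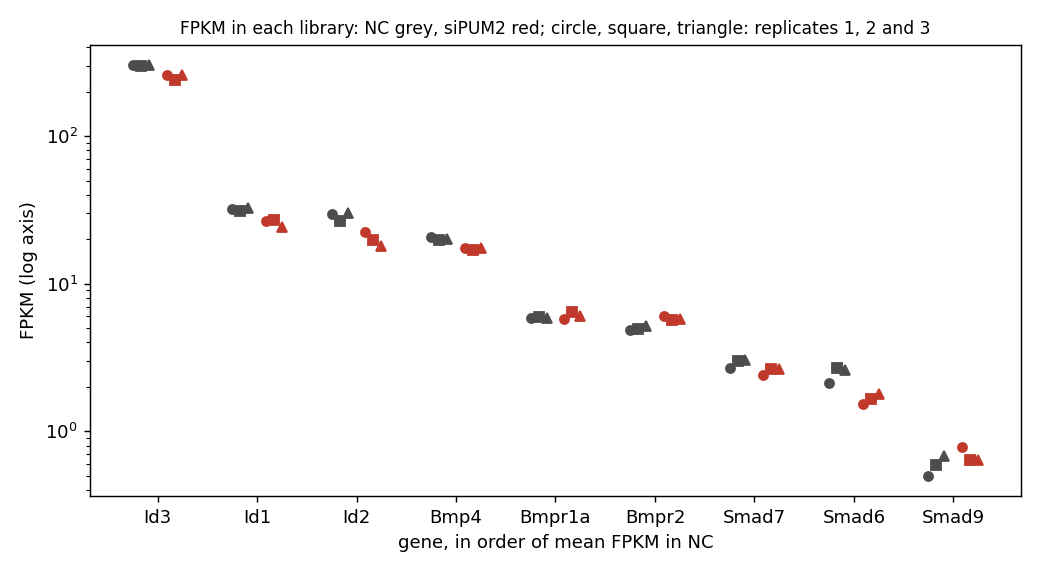
FPKM (vertical log axis) of 9 members in each library, with genes ordered by their mean in NC (grey) and siPUM2 in red. The level of Id3, 301 FPKM in NC, stands above all others, and Smad9, at 0.590 FPKM, is the lowest of those drawn.

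The ligand Bmp4, which signals through the receptors below, reached 65.8, 62.3 and 63.7 CPM in the NC replicates (here and below in the order 1, 2, 3), against 55.1, 53.4 and 55.2 CPM in the siPUM2 replicates. Every siPUM2 library lay below every NC library. The mean fell 1.17-fold, from 63.9 ± 1.74 to 54.5 ± 1.0 CPM (log2 fold change -0.23 ± 0.0413, SE; adjusted p = 9.31e-05, edgeR).

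Grem1 encodes gremlin 1, a secreted protein that binds BMP4 and keeps it from its receptors. It had 2 counts in NC 1 and 0 counts in the other 5 libraries, where 3 counts, the limit that a count of 0 allows, came to 0.0978 to 0.108 CPM per library. No change could be read at this depth.

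The type 2 receptor gene Bmpr2, whose kinase activates the type 1 receptors, was the one member that rose. NC replicates held 62.1, 63.7 and 66.1 CPM, siPUM2 replicates 77.8, 72.4 and 73.8 CPM. The lowest siPUM2 library lay above the highest NC library, and the mean went up 1.17-fold from 63.9 ± 2.02 to 74.7 ± 2.83 CPM (log2 fold change 0.22 ± 0.0383; adjusted p = 4.82e-05, edgeR). Bmpr1a, a type 1 receptor gene, had 23.4, 24.0 and 23.5 CPM in NC, with 23.0, 25.8 and 24.3 CPM in siPUM2. Its groups overlapped, with a log2 fold change of 0.04 and a 95% interval of -0.08 to 0.16 (adjusted p = 0.650, edgeR). Bmp4 and Bmpr2 changed in opposite directions.

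Smad9 encodes a receptor-activated SMAD and was the lowest member that could be tested, with 90 to 140 counts per library. Its levels were 3.22, 3.81 and 4.37 CPM in NC, with 4.98, 4.11 and 4.12 CPM in siPUM2, where replicate 1 was the highest. The groups overlapped, and the 95% interval of its log2 fold change of 0.21 reached from -0.09 to 0.50 (adjusted p = 0.305, edgeR). The log2 fold change was 0.10 without NC 1, 0.11 without siPUM2 1 and 0.32 without NC 3.

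Both inhibitory SMAD genes fell, Smad6 by more. SMAD6 acts chiefly against BMP receptors and their SMADs, whereas SMAD7 acts against TGF-beta receptors as well. For Smad6 the NC replicates gave 7.27, 9.08 and 8.81 CPM, the siPUM2 replicates 5.16, 5.62 and 6.08 CPM. All siPUM2 values were below all NC values, and the mean fell 1.49-fold from 8.38 ± 0.978 to 5.62 ± 0.459 CPM (log2 fold change -0.58 ± 0.110; adjusted p = 0.000181, edgeR).

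For Smad7 the values were 21.3, 23.6 and 23.9 CPM in NC, against 18.8, 20.9 and 21.1 CPM in siPUM2. The groups were separated by little, since the lowest NC library (21.3 CPM) lay just above the highest siPUM2 library (21.1 CPM). The mean fell 1.13-fold from 23.0 ± 1.44 to 20.3 ± 1.25 CPM (log2 fold change -0.18 ± 0.0638; adjusted p = 0.0337, edgeR). This call was lost without NC 2 (adjusted p = 0.10), NC 3 (0.122) or siPUM2 1 (0.177), and with DESeq2 (0.0974). Replicate 1 had the lowest Smad6 and the lowest Smad7 of its group in both groups.

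Id1, Id2 and Id3, which encode helix-loop-helix proteins without a DNA-binding region, all fell; their relative Id4 was not called and is given with the other targets. The myoblast marker Myog fell as well, while Cdh15 and Des rose. Id1 gave 55.9, 53.8 and 56.2 CPM in NC, against 46.4, 46.6 and 42.2 CPM in siPUM2. Its mean fell 1.23-fold from 55.3 ± 1.32 to 45.1 ± 2.50 CPM (log2 fold change -0.29 ± 0.0488; adjusted p = 3.04e-05, edgeR). The gap between the groups, 7.13 CPM, was larger than the range within either group.

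Id2 gave 24.6, 21.9 and 25 CPM in NC, against 18.7, 16.3 and 14.9 CPM in siPUM2, and its mean fell 1.43-fold from 23.8 ± 1.70 to 16.6 ± 1.90 CPM (log2 fold change -0.52 ± 0.0718; adjusted p = 2.30e-06, edgeR). It had the largest relative fall of these 3 ID genes. Id3, by far the most abundant of them, gave 322, 317 and 321 CPM in NC, against 274, 255 and 278 CPM in siPUM2. The mean fell 1.19-fold from 320.0 ± 2.41 to 269 ± 12 CPM (log2 fold change -0.25 ± 0.0284; adjusted p = 9.06e-08, edgeR), and its spread was wider in siPUM2 than in NC.

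**Figure D3:**
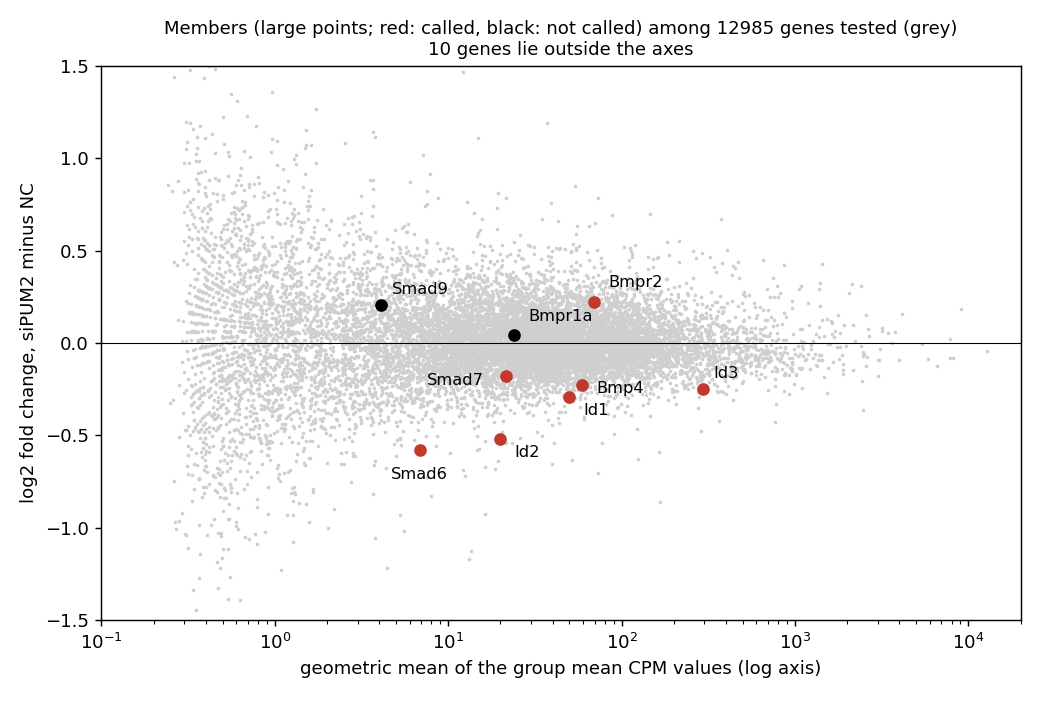
Log2 fold change (vertical axis) against the geometric mean of the group mean CPM values (horizontal log axis) for 12985 genes tested (grey) and the 9 tested members (large points, red where called, black where not), with 10 genes outside the axes. There are 6 members that lie below 0, down to -0.58 for Smad6, and Bmpr2 lies above it at 0.22.

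The ID promoters are shown because these genes fell together. The following sequences are the 250 bases before each start in RefSeq's table for the build GRCr8, read 5′ to 3′ on the gene's strand, with matches to the searched motifs in capitals. The motifs were GGCGCC (a GC-rich SMAD site), GTCTAGAC and the shorter GTCT (SMAD elements), the E-boxes CACGTG and CAGCTG, CCGGAAGT (an ETS site) and, chosen after the sequences were seen, CCAAT and TATAAA, all on both strands. GTCT lies within GTCTAGAC.
Id1, chr3:161671314-161671563 (+ strand): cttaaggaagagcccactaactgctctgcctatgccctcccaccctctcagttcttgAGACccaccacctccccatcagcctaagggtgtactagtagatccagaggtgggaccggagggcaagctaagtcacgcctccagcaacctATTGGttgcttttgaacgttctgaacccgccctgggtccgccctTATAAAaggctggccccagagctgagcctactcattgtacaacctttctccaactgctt
Id2, chr6:47470996-47471245 (- strand): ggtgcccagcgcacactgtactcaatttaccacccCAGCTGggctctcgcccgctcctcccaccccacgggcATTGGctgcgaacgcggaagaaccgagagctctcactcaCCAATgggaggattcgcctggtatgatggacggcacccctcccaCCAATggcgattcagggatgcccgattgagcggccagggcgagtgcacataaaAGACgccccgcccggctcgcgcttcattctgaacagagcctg
Id3, chr5:153656041-153656290 (+ strand): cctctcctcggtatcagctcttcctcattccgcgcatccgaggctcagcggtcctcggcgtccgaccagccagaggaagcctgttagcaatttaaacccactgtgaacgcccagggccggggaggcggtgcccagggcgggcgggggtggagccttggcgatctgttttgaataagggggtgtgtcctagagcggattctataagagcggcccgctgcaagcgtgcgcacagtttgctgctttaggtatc

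Id1 held a CCAAT match on the reverse strand 103 bases before its start and TATAAA 59 bases before it. Id2 held 3 CCAAT matches, 178, 139 and 95 bases before the start, and CAGCTG 215 bases before it. Id3 held none of the motifs. CCAAT occurred in 34.0% of 33465 promoter windows of this length, TATAAA in 12.9% and CAGCTG in 12%. The short GTCT was in Id1 and Id2 but also in 84.1% of all windows, and GGCGCC, present in 8.70% of windows, was in none of the ID windows. These matches are descriptions of letters and not of bound sites, and the enhancers of these genes may lie outside the windows.

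Ratios within a library, which do not depend on scaling, were compared for 5 pairs of members with a two-sided exact permutation test over libraries. With 3 libraries against 3 the smallest p it allows is 0.10. The log2 ratio of Smad6 to Smad7 counts was -1.55, -1.38 and -1.44 in NC and -1.87, -1.90 and -1.79 in siPUM2, a difference of -0.39 without overlap (exact permutation p = 0.10, adjusted over 5 pairs 0.167). The ratio of Id2 to Id1 was also lower in every siPUM2 library, with a mean difference of -0.23 (exact permutation p = 0.10, adjusted 0.167).

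For Smad9 over Smad6 the difference was 0.79 with no overlap (exact permutation p = 0.10, adjusted 0.167). The Id3 to Id1 ratio overlapped between the groups, at 2.53 ± 0.0244 in NC and 2.58 ± 0.133 in siPUM2 (exact permutation p = 0.700, adjusted 0.700), and so did Bmpr2 over Bmpr1a, at 1.43 ± 0.0484 and 1.62 ± 0.136 (exact permutation p = 0.200, adjusted 0.250); the latter difference, 0.18, was 0.11 without siPUM2 1. None of the 5 differences passed an adjusted p of 0.05, which this design could not reach. The ratio of Grem1 to Bmp4 was not computed because Grem1 was at 0 counts in 5 libraries.

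**Figure D4:**
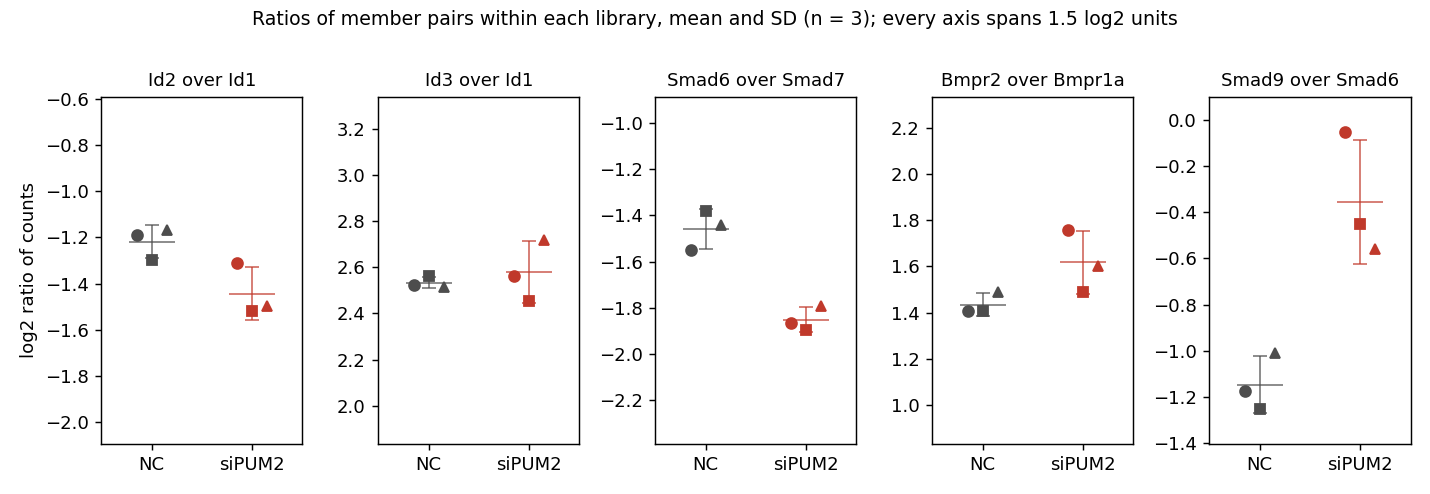
Log2 ratio of counts of 2 members within each library (vertical axis, the same span in every panel) for NC (grey) and siPUM2 (red), with mean and SD (n = 3). Smad6 over Smad7 and Id2 over Id1 are lower in every siPUM2 library, Smad9 over Smad6 is higher, and the other 2 ratios overlap.

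Among the rest of the pathway both directions were seen. Of 60 further genes listed, 46 had a row and 39 were tested, of which 9 rose, 6 fell and 24 were not called; this is 38.5% called, beside 28.4% of all genes, and their median log2 fold change was 0.01. Of 13 other ligands listed 5 had a row, and of these only Gdf11 and Bmp3 were high enough to test. Gdf11, a ligand that signals mainly through activin receptors, rose 1.25-fold (mean 59.2 ± 2.27 CPM in NC, 74.3 ± 1.84 CPM in siPUM2; edgeR's adjusted p = 2.02e-07). Bmp3 had a log2 fold change of -0.24 (95% interval -0.52 to 0.04; adjusted p = 0.206, edgeR).

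Of 8 tested receptors and coreceptors 3 rose and 2 fell, where 15.1% of all genes rose and 13.3% fell. Rgmb, a BMP coreceptor, rose 1.23-fold (mean 42.4 ± 0.638 CPM in NC, 52.1 ± 1.87 CPM in siPUM2; edgeR's adjusted p = 2.36e-05), and Eng, the coreceptor endoglin, rose 1.08-fold (edgeR's adjusted p = 0.00684). Tgfbr3, the coreceptor betaglycan, fell 1.22-fold (mean 34.1 ± 0.250 CPM in NC, 28 ± 2.18 CPM in siPUM2; edgeR's adjusted p = 0.000481). The type 2 receptor genes split, with Acvr2a 1.16-fold lower (24.1 ± 1.26 to 20.8 ± 1.36 CPM; edgeR's adjusted p = 0.0104) and Acvr2b 1.19-fold higher (7.0 ± 0.166 to 8.37 ± 0.151 CPM). The call for Acvr2b (adjusted p = 0.0436, edgeR) was lost whichever library was left out (adjusted p = 0.0696 to 0.117), with DESeq2 (0.145) and with the replicate number as a block (0.0511). That for Acvr2a was lost without siPUM2 2 (0.0646), and that for Eng without NC 2 (0.0524) or siPUM2 1 (0.0556).

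Of the other signalling SMADs, Smad5 fell 1.14-fold (mean 65.2 ± 4.01 CPM in NC, 57.3 ± 1.45 CPM in siPUM2; edgeR's adjusted p = 0.00190; 0.0517 without NC 2). Smad1 (log2 fold change 0.04, 95% interval -0.08 to 0.17) and Smad4 (0.01, interval -0.08 to 0.11) were not called.

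Among 9 tested secreted antagonists and modulators 5 rose and none fell, where 15.1% of all genes rose; 4 were not called. Fst encodes follistatin, which binds activins and some BMPs, and rose 1.23-fold (mean 622 ± 19.6 CPM in NC, 763 ± 25.1 CPM in siPUM2; edgeR's adjusted p = 3.05e-09). Bmper, encoding a secreted BMP-binding regulator, rose 1.21-fold (mean 153 ± 0.790 CPM in NC, 186 ± 2.19 CPM in siPUM2; edgeR's adjusted p = 2.27e-09). Bmp1, which despite its name encodes a protease that cleaves chordin and procollagens, rose 1.14-fold from 115 ± 2.60 to 131 ± 4.08 CPM (edgeR's adjusted p = 1.28e-05). The remaining risers, named after their values were seen because the count was small, were the related protease gene Tll1 (1.34-fold) and the antagonist gene Nbl1 (1.13-fold; adjusted p = 0.0791 without siPUM2 1, edgeR).

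Of 10 tested intracellular and membrane regulators 1 was called (10%), and of 4 further targets tested 1 (25%), beside 28.4% of all genes called. These targets leave out the members Id1, Id2, Id3, Smad6 and Smad7, which were all called lower. Bambi, a decoy receptor that BMP signalling can induce, fell 1.44-fold from 2.66 ± 0.210 to 1.85 ± 0.0688 CPM. Its call (adjusted p = 0.0292, edgeR) was lost with DESeq2 (0.0945) and without any one library other than NC 2 (0.0550 to 0.0976), and it was named after its value was seen. The ubiquitin ligase genes Smurf1 (log2 fold change -0.01) and Smurf2 (0.01) were not called. Atoh8, a BMP-responsive transcription factor gene, fell 1.2-fold (mean 26.7 ± 0.461 CPM in NC, 22.3 ± 1.26 CPM in siPUM2; edgeR's adjusted p = 0.000997). The fourth ID gene, Id4, was at 7.15 ± 0.635 and 8.35 ± 0.714 CPM with a log2 fold change of 0.22 (95% interval 0.01 to 0.43), and was not called (adjusted p = 0.105, edgeR).

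The E proteins are the dimer partners of ID proteins. Tcf3 was at 95.8 ± 2.77 and 92.8 ± 3.30 CPM, and Tcf12 at 48.0 ± 1.96 and 45.8 ± 1.22 CPM, in NC and siPUM2; neither was called. Tcf4 fell 1.13-fold (mean 21.3 ± 0.654 CPM in NC, 18.9 ± 1.31 CPM in siPUM2; edgeR's adjusted p = 0.0392), a call lost with DESeq2 (0.120) and without NC 1, NC 3, siPUM2 1 or siPUM2 2 (0.0687 to 0.218).

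**Figure D5:**
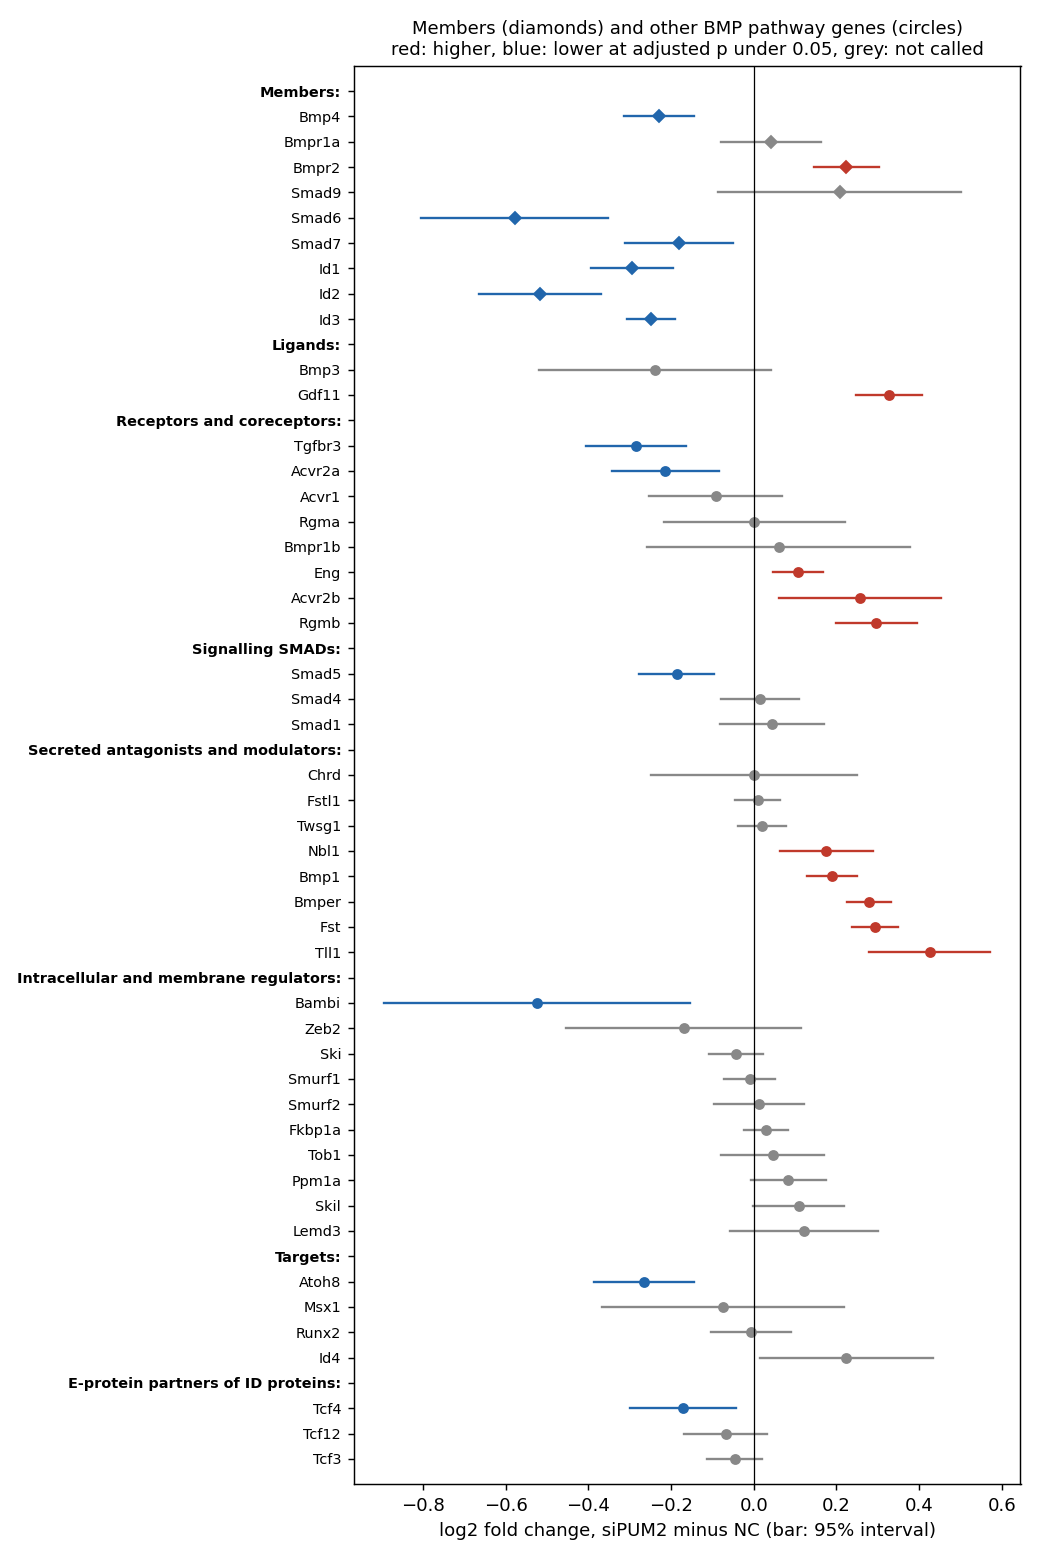
Log2 fold change of siPUM2 minus NC (horizontal axis) with its 95% interval for 9 members (diamonds) and 38 of the 39 other pathway genes tested (circles), red where higher and blue where lower at an adjusted p under 0.05, grey where not called. Id1, Id2, Id3, Smad6 and Smad7 lie left of 0, Id4 lies right of it in grey, and 5 secreted antagonists and modulators lie right of 0 in red.

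The genes most like Id1, Id2 and Id3 were sought among 8711 genes of at least 10 mean CPM, by the Pearson correlation of log2 CPM over the 6 libraries with the mean of the centred ID values. The highest 5 were Nup205, Pprc1, Ahr, Sapcd2 and Nop2 (0.994 to 0.997). Since the 6 libraries form 2 groups, such values mostly restate a fall in siPUM2, and 289 genes exceeded 0.95. All 5 fell, by log2 fold changes of -0.11 for Pprc1 to -0.30 for Ahr, the aryl hydrocarbon receptor. With group means removed their correlations were 0.922 to 0.969, in genes picked for the highest correlation among 8711. On that scale the ID genes themselves did not all move together. Id1 and Id2 had 0.80, Id2 and Id3 0.07, and Id1 and Id3 -0.53.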

How the data were processed

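RNA was sequenced from 6 libraries of H9C2 cells, 3 NC and 3 siPUM2, grouped by title. Per the submitters' processing notes, HISAT2, DESeq2 and the build mRatBN7.2 were used; for versions, annotation and counting program the sources used here give nothing. The authors deposited raw whole-number counts for each gene and FPKM values rounded to 2 decimals. Rows without a gene name numbered 0.

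The counts were tested with edgeR 4.0.16 in R 4.3.3 (quasi-likelihood, TMM factors 0.995 to 1.00, filterByExpr, no term besides the group). With the filter, 6840 genes were set aside, with 0.0465% of the counts. SEs were derived from the F statistic. Calls were made at an adjusted p under 0.05 over all genes tested. DESeq2 1.42.0, limma 3.58.1 (voom, and log2 FPKM with a pseudocount of 1 or 0.1), other scalings and filters, a block for the replicate number, fits lacking 1 library and, chosen after seeing the data, a correction of the trend with gene length in each library were alternatives. The gene test was tested on simulated counts. Within groups, no pair of libraries agreed within sampling noise (ratio of chi-square to its degrees of freedom 2.07 to 3.80). Each library was counted as a replicate, though this spread does not show that they came from separate cultures. Of 60 listed pathway genes, 46 matched by symbol. 1 tested gene of that list enters the counts but is not reported here.

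Members and lists were chosen with earlier results of these data known. Named were Pum2, the members and, from the pathway list, called ligands and receptors and up to 4 called genes of lowest p per direction without overlap, besides the 5 genes most like the ID genes. Other pathway genes (Bmp3, Smad1, Smad4, Smurf1, Smurf2, Bambi, Id4, Tll1, Nbl1, Tcf3, Tcf4 and Tcf12) and the cell type markers were named outside this rule, after their values were seen. Promoters came from RefSeq's table of GRCr8, used only for promoter sequences and their positions, which held 9 of the 10 members. Proteins were not analysed here.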

Additional observations from a re-analysis of the deposited data

How the results depend on the processing

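For the members and Pum2, 149 of 160 log2 fold changes under the alternatives kept their direction and their side of the threshold. The count of called genes (3692) went to 2415 on log2(FPKM + 1), 1274 higher and 1141 lower, and to 861 on log2(FPKM + 0.1), 534 higher and 327 lower. The latter scale left 2 of 7 members called (Bmp4 and Id3), 0 higher and 2 lower, and 7 of the other pathway genes, 5 higher and 2 lower. There Bmpr2 was at 0.22 (adjusted p = 0.0684, limma), Smad6 at -0.55 (0.0532), Smad7 at -0.18 (0.219), Id1 at -0.30 (0.0508) and Id2 at -0.52 (0.0568). Smad7 also lost its call with DESeq2 (-0.18) and on log2(FPKM + 1) (-0.13, adjusted p = 0.154). At an adjusted p under 0.01, 1126 genes were called lower, and 3 other pathway genes; log2(FPKM + 1) also left 3 lower. The cause of these changes was not tested.

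Leaving out 1 library at a time gave 3004 to 3538 called genes, 6 to 7 called members, and 10 to 13 other pathway genes (15 with all), 6 to 8 higher and 3 to 5 lower; the 3 came without siPUM2 2 and the 10 without siPUM2 1. Smad7 ranged from -0.23 to -0.13. Bmpr1a, not called, ranged from -0.00028 (without siPUM2 2) to 0.082, Smad9, not called either, from 0.10 to 0.32, the Bmpr2 to Bmpr1a log2 ratio from 0.11 to 0.25, and the Id3 to Id1 log2 ratio from -0.025 (without siPUM2 3) to 0.11. Without siPUM2 3, 7 members and 13 other pathway genes were called.

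Same-numbered libraries did not deviate together (correlations 0.0342, 0.0204 and 0.0027), which with 3 libraries per group cannot settle whether they were paired. The labels do not say that equal replicate numbers mark a shared batch. With the replicate block 3731 genes, 7 members and 14 other pathway genes were called. Among Pum2, the tested members, the listed pathway genes and the genes most like the ID genes, the block changed only the call of Acvr2b. The cell type markers were not compared under the block. With each library's length trend removed, 7 members were called, Id1 was at -0.28 and Bmpr2 at 0.19. The low counts of Smad9 and Grem1 limited what could be seen for them.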

Other observations

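Transcript length differed among the members, and the median change over all genes moved slightly with length. By the ratio of counts to FPKM, Id2, Id3 and Id1 were 0.828, 1.06 and 1.74 kb long and fell in the shortest of 5 equal classes of the tested genes with a length, where the median log2 fold change was -0.02. Smad7 (7.88 kb) and Bmpr2 (12.8 kb) were in the longest class, where it was 0.02. Removing the length trend left the calls of these 5 genes in place.

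Outside the ID genes, GGCGCC was found in 3 of the 9 member promoters of the table, beside 8.70% of all promoter windows. Smad7 held it 96 and 36 bases before its start, Grem1 91 bases and Smad9 15 bases before. In these windows, in the same order, G and C made up 78%, 72% and 70% of the bases. They held 32, 25 and 17 CG pairs, beside a median of 5 over all windows, and Bmpr2, without GGCGCC, held 23. Windows equally rich in G and C were not compared. The 250 bases before Bmp4 held CACGTG, found in 5.59% of all windows, 72 bases before the start. They also held CAGCTG 184 bases before it. In Bmpr2 none of the motifs was found. These are matches of letters, and binding was not measured.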
